A study of Mus musculus with 6 samples.

Results

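Among the transcripts of colorectal tumors, 9 genes that mark the fetal-like, Yap-driven state of injured intestinal epithelium were examined: *Yap1*, its target genes *Ccn1* and *Ccn2*, the markers *Ly6a*, *Anxa1*, *Anxa8*, *Clu* and *Msln*, and the alarmin *Il33*. They were taken by gene name from the 54167 genes with deposited values, and all 9 were found. RNA was sequenced from 6 tumors, 3 from *Trp53fl/fl* mice and 3 from *VP* (*Pvillin-Cre* + *Trp53fl/fl*) mice, all of the C57BL/6J strain. Both genotypes carry *Trp53* alleles flanked by loxP sites. In *Trp53fl/fl* mice no Cre is present and p53 is intact, whereas in *VP* mice the villin promoter drives Cre in the intestinal epithelium, so that the stromal and immune cells of a *VP* tumor keep *Trp53*. Mice of both genotypes were given the carcinogen azoxymethane (AOM, 10 mg/kg) at 8 weeks of age and then repeated 7-day rounds of 2.5% dextran sulfate sodium (DSS), which injures and inflames the colon, and tumors were taken on day 98. The labels number the tumors of each genotype but do not say whether each came from its own mouse, so p-values measure the spread between these tumors.

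Yap1 is a transcriptional coactivator that the Hippo kinase cascade keeps out of the nucleus. When the intestinal lining is injured, Yap enters the nucleus, pairs with Tead factors and switches on wound-associated genes, and for a time the repairing epithelium expresses genes normally seen in the fetal gut while crypt base stem cell genes such as *Lgr5* are lowered. Several of these genes are also expressed by fibroblasts, muscle, endothelium or immune cells, and RNA from whole tumors does not separate these sources.

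The letters GGAATG form the core of the sequence that Tead factors bind. Promoters of 300 bases, from 250 before to 50 after the start site, were read from RefSeq (GRCm38.p6) for 5 of the 9 genes, namely *Anxa1*, *Anxa8*, *Ccn1*, *Il33* and *Yap1*. Those of *Ccn1*, the textbook direct target, and of *Yap1* itself are printed 5′ to 3′ on the strand of the gene, with the Tead letters in capitals, either as GGAATG or as its reverse complement CATTCC.
Ccn1, chr3:145649936-145650235, minus strand: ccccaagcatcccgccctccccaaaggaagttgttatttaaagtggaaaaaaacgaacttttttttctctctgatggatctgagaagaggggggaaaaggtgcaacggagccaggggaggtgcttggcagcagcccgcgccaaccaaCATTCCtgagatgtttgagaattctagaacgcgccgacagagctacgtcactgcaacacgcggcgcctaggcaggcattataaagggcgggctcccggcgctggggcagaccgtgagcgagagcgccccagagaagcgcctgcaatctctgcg
Yap1, chr9:8004547-8004846, minus strand: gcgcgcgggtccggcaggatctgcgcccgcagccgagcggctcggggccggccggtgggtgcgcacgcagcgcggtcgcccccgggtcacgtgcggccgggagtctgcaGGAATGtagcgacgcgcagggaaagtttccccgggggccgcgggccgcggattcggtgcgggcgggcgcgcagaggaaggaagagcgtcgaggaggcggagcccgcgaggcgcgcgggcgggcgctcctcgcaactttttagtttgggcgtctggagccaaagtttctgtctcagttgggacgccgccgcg
In *Ccn1* the match begins 103 bases before the start site and a TATAAA box 25 bases before it. In *Yap1* the match begins 141 bases before the start site, and no TATAAA is present in the window. The same letters were found 236 bases before the start of *Anxa1* and 131 and 107 bases before the 2 start sites of *Il33*, but not in the *Anxa8* window. Such a match is common, since 14.7% of the 32841 mouse promoters in the table hold GGAATG on one strand or the other. The AP-1 letters TGANTCA, held on either strand by 7.81% of promoters, were in none of the windows of these 5 genes. TATAAA on the gene strand is held by 8.32% of promoters, and it was in all windows here except those of *Yap1* and *Anxa8*. These are matches of letters only.

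The values deposited are TPM (transcript abundances scaled to a common total in each tumor), which are divided by transcript length, so that levels can be compared between genes. The genotypes separated by *Trp53* itself, at 125, 99.3 and 147 TPM in the 3 *Trp53fl/fl* tumors and 38.5, 32.8 and 27.8 TPM in the 3 *VP* tumors (limma log2 fold change -1.87, adjusted p = 0.0207). As a check of the tissue, 12 epithelial markers summed to 10350 to 10811 TPM in *Trp53fl/fl* tumors and to 11699 to 12704 TPM in *VP* tumors, without overlap. Fold changes below are *VP* minus *Trp53fl/fl* on the log2(TPM + 1) scale, tested with limma and adjusted by Benjamini-Hochberg over 15117 genes, those that reached 1 TPM in 3 or more tumors.

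None of the 9 genes differed between the genotypes after adjustment over all genes, where 25 genes (0.165%) passed an adjusted p-value of 0.05, 12 with higher (0.0794%) and 13 with lower values (0.086%) in *VP* tumors. All 9 entered the test. Without adjustment 2 of them had a p-value under 0.05, *Ly6a* with higher and *Yap1* with lower values in *VP* tumors, as did 12.5% of all genes, 4.51% with higher and 8% with lower values. The same 2 genes were the only ones of the 9 whose tumors did not overlap between the genotypes, and 19.3% of all genes tested were separated in that way, 6.03% upward and 13.3% downward. The median log2 fold change was -0.08 over the 9 genes and -0.07 over all genes tested, and 60.8% of all genes had a value below 0. Gene by gene, the log2 fold changes ran from -0.34 for *Yap1* to 0.81 for *Msln*, with 4 positive and 5 negative.

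**Figure D1:**
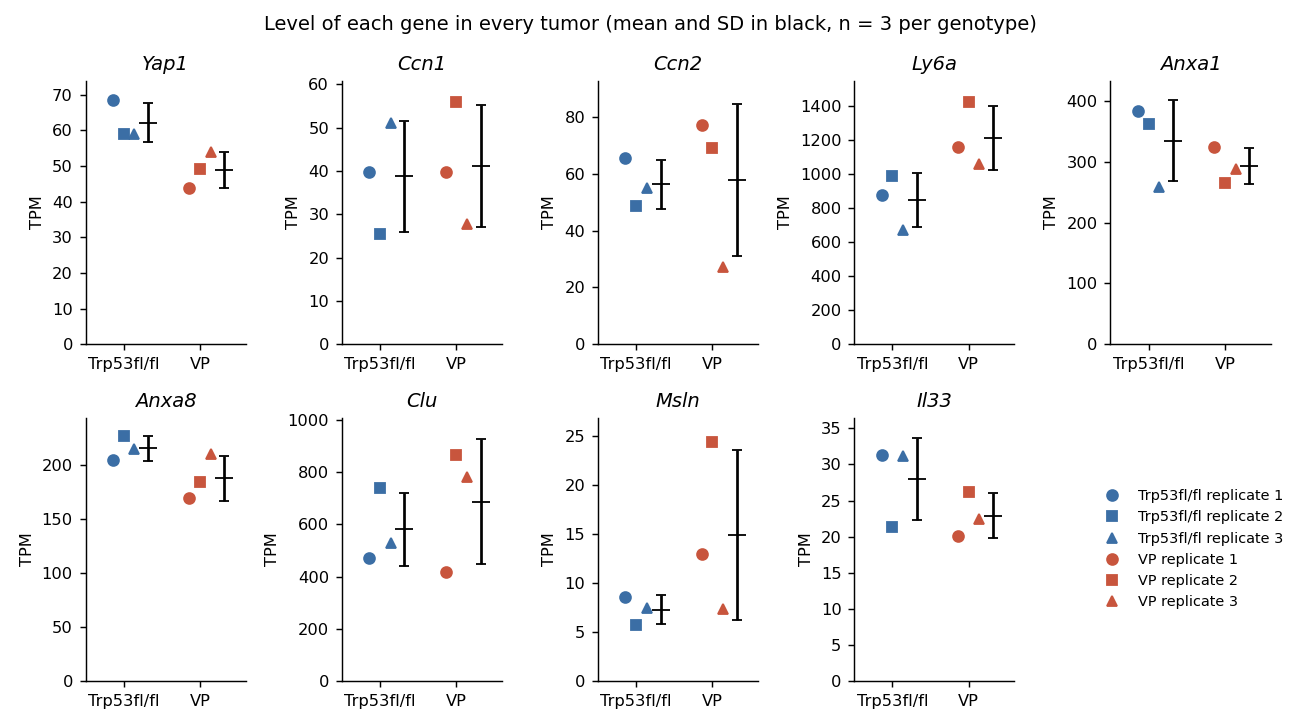
Level of each of the 9 genes in TPM (vertical axes, from 0) in the 3 *Trp53fl/fl* tumors (blue) and the 3 *VP* tumors (red), with the shape giving the replicate and the black bar the mean and SD (n = 3). All *VP* points lie below the *Trp53fl/fl* points for *Yap1* and above them for *Ly6a*, and the genotypes overlap for the other 7 genes.

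By level the 9 genes spanned from among the most abundant transcripts of the tumor to genes below the median. *Ly6a* had a mean of 1029 TPM over the 6 tumors and lay above 99.0% of the genes tested. *Clu* lay above 98.5% of them, *Anxa1* above 97.0% and *Anxa8* above 95.3%. *Ccn2*, *Yap1* and *Ccn1* followed, above 82.7%, 82.2% and 75.6% of genes. *Il33* lay above 64.2% and *Msln* above 41.7%. The order from *Ly6a* through *Clu*, *Anxa1* and *Anxa8* to *Ccn2* held in each of the 6 tumors, and so did *Ccn1* over *Il33* and *Il33* over *Msln*. *Ccn2* and *Yap1* could not be ordered, since *Ccn2* exceeded *Yap1* in 2 of 6 tumors. *Yap1* exceeded *Ccn1* in 5 of 6 tumors.

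The genes also differed in how far tumors of one genotype lay apart. *Anxa8* and *Yap1* were steady, with a within-genotype SD on the log2 scale larger than that of only 17.9% and 22.1% of all genes. *Msln*, *Ccn2*, *Ccn1* and *Clu* were among the most variable, with an SD larger than that of 93.4%, 93.1%, 89.8% and 88.6% of genes. The highest tumor was 4.27 times the lowest for *Msln*, 2.82 times for *Ccn2* and 1.34 times for *Anxa8*. *VP* replicate 2 had the highest value of 4 of the 9 genes, and *VP* replicate 1 had the lowest value of 4, so that tumors of 1 genotype lay at both ends. Summed over the 9 genes, the level was 2151, 2476 and 1880 TPM in *Trp53fl/fl* tumors and 2263, 2962 and 2474 TPM in *VP* tumors, a sum to which *Ly6a* and *Clu* contribute most.

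*Yap1* (ENSMUSG00000053110, chr9:7931999-8004596, minus strand in the GENCODE M21 annotation of GRCm38, as for the positions below) was at 68.4, 59.0 and 58.9 TPM in *Trp53fl/fl* tumors and at 43.8, 49.0 and 53.9 TPM in *VP* tumors. Every *VP* tumor was below every *Trp53fl/fl* tumor, with 58.9 against 53.9 TPM at the nearest pair. The log2 fold change was -0.34 (standard error 0.12, 95% interval -0.63 to -0.053), and the limma adjusted p = 0.347, so the difference did not pass. Leaving out 1 tumor at a time gave -0.41 to -0.26. Centring each tumor on the 12 epithelial markers gave -0.51, but it also moved the median of all genes tested from -0.07 to -0.24. The limma adjusted p = 0.143 with this centring was the lowest of any of the 9 genes under the alternatives run. In RNA from whole tumors, fewer cells that express a gene and less RNA per cell cannot be told apart.

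*Ccn1* and *Ccn2* (earlier Cyr61 and Ctgf) encode secreted matrix proteins and are the targets most often used to read Yap activity. *Ccn1* (ENSMUSG00000028195, chr3:145646976-145649981, minus strand) was at 39.7, 25.6 and 51.2 TPM in *Trp53fl/fl* tumors and at 39.8, 55.8 and 27.8 TPM in *VP* tumors. *Ccn2* (ENSMUSG00000019997, chr10:24595442-24598683, plus strand) was at 65.7, 48.7 and 54.9 TPM and at 77.0, 69.2 and 27.3 TPM. For both genes the *VP* tumors covered nearly the whole range of the *Trp53fl/fl* tumors and went beyond it. The log2 fold changes were 0.08 for *Ccn1* (standard error 0.31, 95% interval -0.66 to 0.82, limma adjusted p = 0.929) and -0.08 for *Ccn2* (standard error 0.37, 95% interval -0.96 to 0.79, limma adjusted p = 0.938). Both intervals reach well to either side of 0. The direction depended on single tumors: *Ccn1* was at -0.18 without *Trp53fl/fl* replicate 2 and -0.16 without *VP* replicate 2, and *Ccn2* was at 0.38 without *VP* replicate 3 and 0.03 without *Trp53fl/fl* replicate 1.

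Smooth muscle markers moved with *Ccn1* and *Ccn2* from tumor to tumor. The 8 markers, among them *Acta2*, *Myh11* and *Des*, summed to 696, 495 and 819 TPM in *Trp53fl/fl* tumors and to 887, 1363 and 420 TPM in *VP* tumors. *VP* replicate 3 and *Trp53fl/fl* replicate 2, the 2 tumors with the lowest sums, were also the 2 lowest for *Ccn1* and for *Ccn2*. *Ccn3*, another member of the CCN family, was likewise lowest in these tumors, at 18.3 and 19.2 TPM, and reached 32.3 to 55.0 TPM in the other 4. *Yap1* did not follow this order, with its lowest values in *VP* replicates 1 and 2, where the muscle sum was highest. The part of smooth muscle in the levels of *Ccn1* and *Ccn2* was not tested.

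**Figure D2:**
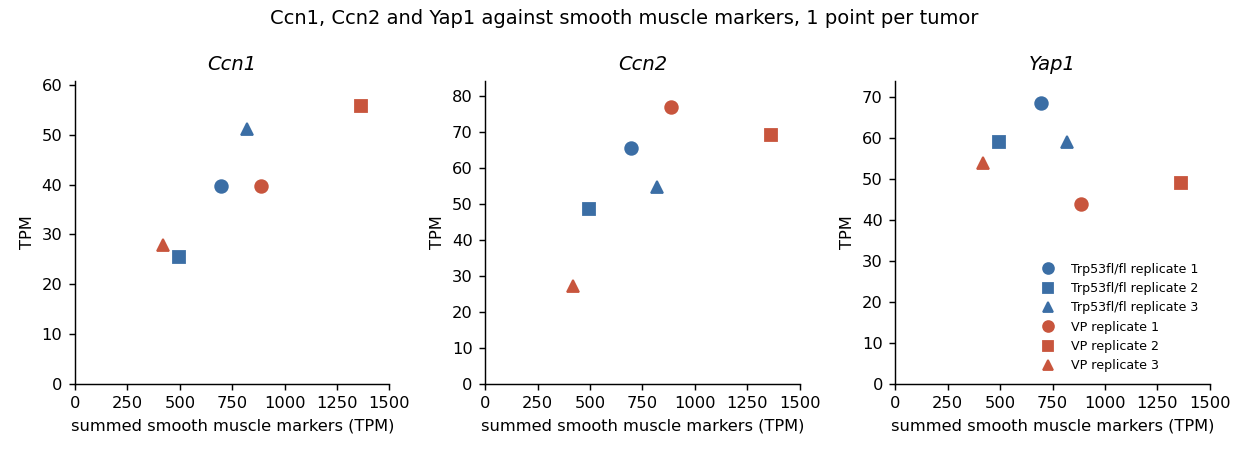
TPM of *Ccn1*, *Ccn2* and *Yap1* (vertical axes, from 0) against the summed TPM of 8 smooth muscle markers (horizontal axes), 1 point per tumor, *Trp53fl/fl* in blue and *VP* in red. The 2 tumors with the lowest muscle sums, 420 and 495 TPM, have the lowest *Ccn1* and *Ccn2*, while *Yap1* is lowest at muscle sums of 887 and 1363 TPM.

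*Ly6a* (ENSMUSG00000075602, chr15:74994877-74998031, minus strand) encodes Sca-1, a surface protein linked to the membrane by a lipid anchor, which marks fetal-like epithelium in the injured colon and is also found on endothelial and blood-forming cells. It was at 878, 987 and 674 TPM in *Trp53fl/fl* tumors and at 1159, 1422 and 1057 TPM in *VP* tumors. Every *VP* tumor was above every *Trp53fl/fl* tumor, and the means were 846 ± 159 TPM and 1213 ± 188 TPM (SD, n = 3 each), a ratio of 1.43. The log2 fold change of 0.53 (standard error 0.18, 95% interval 0.097 to 0.95) did not pass (limma adjusted p = 0.341). Under the 14 alternatives it stayed between 0.35, with epithelial centring, and 0.65, without *Trp53fl/fl* replicate 2. The limma adjusted p lay between 0.229 and 0.667.

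Cell type markers that could accompany *Ly6a* were read beside it. The epithelial sums given above were higher in every *VP* tumor than in any *Trp53fl/fl* tumor, as was *Ly6a*. The 10 endothelial markers summed to 121 to 154 TPM in *Trp53fl/fl* tumors and to 154 to 156 TPM in *VP* tumors. Of the 10, 9 had positive fold changes. None passed limma's adjusted threshold, and 1, *Vwf*, had an unadjusted p-value under 0.05, against 12.5% of all genes. The 8 T cell markers summed to 31.6 to 43.4 and 19.8 to 42.9 TPM. Neutrophil markers differed most, with sums of 301 to 639 TPM in *Trp53fl/fl* and 1160 to 1959 TPM in *VP* tumors. Every *VP* tumor was above every *Trp53fl/fl* tumor for 8 of the 10 (80.0%, against 6.03% of all genes). After adjustment 1 of the 10, the granule protein *Ngp*, passed with higher values, as did 0.0794% of all genes (log2 fold change 4.37, limma adjusted p = 0.00804). Macrophage markers summed to 1182 to 1258 TPM in *Trp53fl/fl* and 983 to 1362 TPM in *VP* tumors, B cell and follicle markers to 420 to 819 and 381 to 849 TPM, and fibroblast markers to 1237 to 1433 and 1086 to 1504 TPM, and none of these genes passed. The part of these cell types in the *Ly6a* values was not tested.

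*Ly6a* lies in a cluster of related Ly6 genes, which can share reads through similar sequence. Of 12 genes of this family 9 were tested, and 7 had positive fold changes, with a median of 0.22. By limma's adjusted p-value none passed, and 3, *Ly6a*, *Ly6c1* and *Ly6c2*, had higher values in *VP* tumors with an unadjusted p-value under 0.05, as did 4.51% of all genes. The median was 0.47 without *Trp53fl/fl* replicate 1, 0.48 without *VP* replicate 3, 0.39 with a pseudocount of 0.1 and 0.046 with epithelial centring. *Ly6c1*, found on endothelium and immune cells, was at 163, 153 and 132 TPM in *Trp53fl/fl* tumors and at 323, 262 and 178 TPM in *VP* tumors, without overlap (log2 fold change 0.73, limma adjusted p = 0.312). *Ly6c2*, a marker of inflammatory monocytes, had a log2 fold change of 0.55 (adjusted p = 0.374). The lowest values of the family were those of *Ly6m* at -0.13 and *Ly6d* at -0.06.

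*Anxa1* (ENSMUSG00000024659, chr19:20373428-20390944, minus strand) encodes annexin A1, a calcium-dependent membrane-binding protein that limits inflammation and promotes closure of mucosal wounds. Its levels were 383, 362 and 258 TPM in *Trp53fl/fl* tumors and 325, 266 and 288 TPM in *VP* tumors, with overlap. This gave a log2 fold change of -0.18 (standard error 0.17, 95% interval -0.58 to 0.23, limma adjusted p = 0.675), and of -0.35 without *Trp53fl/fl* replicate 3 and -0.068 without *Trp53fl/fl* replicate 1. Annexin A1 acts through formyl peptide receptors, which neutrophils carry in abundance. *Fpr1* was at 3.29, 1.96 and 2.51 TPM in *Trp53fl/fl* tumors and at 8.6, 11.3 and 4.98 TPM in *VP* tumors, without overlap (log2 fold change 1.33, limma adjusted p = 0.234). *Fpr2* was also without overlap, with a log2 fold change of 1.23 (adjusted p = 0.303). Neither receptor passed, and both stood in the same order of genotypes as the neutrophil sums above, whose part was not tested.

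*Anxa8* (ENSMUSG00000021950, chr14:34085981-34100571, plus strand) encodes annexin A8, an epithelial annexin that marks fetal-like cells. It was at 205, 227 and 215 TPM in *Trp53fl/fl* tumors and at 169, 184 and 210 TPM in *VP* tumors. Only *VP* replicate 3 reached the range of the *Trp53fl/fl* tumors. The fold change on the log2 scale was -0.20 (standard error 0.11, 95% interval -0.47 to 0.068, limma adjusted p = 0.494). Annexin A8 is also known from squamous epithelium. The 10 squamous markers summed to 78.1 to 104 TPM in *Trp53fl/fl* tumors and to 28.5, 115 and 94.8 TPM in *VP* tumors. The lowest sum fell in *VP* replicate 1, where *Anxa8* was lowest, but the highest sum fell in *VP* replicate 2, where *Anxa8* was second lowest. Of the 6 squamous markers tested 3 had positive and 3 negative fold changes, with *Krt14* at -1.21 and *Krt4* at 0.79, and *Trp63*, which defines squamous basal cells, did not exceed 0.08 TPM. The part of squamous cells in the *Anxa8* values was not tested. Among the 10 annexins tested 8 (80.0%) had negative fold changes, against 60.8% of all genes. Their median was -0.11, against -0.07 over all genes. With limma no gene passed after adjustment, and *Anxa11* was the 1 with an unadjusted p-value under 0.05, against 12.5% of all genes. *Anxa4* was lowest at -0.23 and *Anxa11* highest at 0.33 (limma adjusted p = 0.397), followed by *Anxa3* at 0.06.

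*Clu* (ENSMUSG00000022037, chr14:65968483-65981547, plus strand) encodes clusterin, a secreted chaperone that marks revival stem cells of the damaged intestine. It was at 472, 739 and 530 TPM in *Trp53fl/fl* tumors and at 415, 866 and 779 TPM in *VP* tumors, so that the lowest and the highest value both came from *VP* tumors. This gave a log2 fold change of 0.20 (standard error 0.30, 95% interval -0.51 to 0.91, limma adjusted p = 0.795). Without *VP* replicate 2 it was -0.0015.

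*Msln* (ENSMUSG00000063011, chr17:25748613-25754378, minus strand) encodes mesothelin, a surface protein of mesothelium that is also switched on in many carcinomas and in fetal-like gut epithelium. It was at 8.61, 5.71 and 7.46 TPM in *Trp53fl/fl* tumors and at 12.97, 24.4 and 7.34 TPM in *VP* tumors. *VP* replicates 1 and 2 were above all *Trp53fl/fl* tumors, and *VP* replicate 3 lay within their range. The log2 fold change was the largest of the 9 genes, at 0.81 (standard error 0.38, 95% interval -0.090 to 1.72, limma adjusted p = 0.430). It was 0.40 without *VP* replicate 2 and 1.21 without *VP* replicate 3. All 7 mesothelial markers, among them *Upk3b*, *Wt1* and *Lrrn4*, were under 1 TPM in every tumor. They summed to 2.57, 1.3 and 1.08 TPM in *Trp53fl/fl* tumors and to 1.54, 2.56 and 0.86 TPM in *VP* tumors. These sums stood in the same order as *Msln* among the *VP* tumors, but not among the *Trp53fl/fl* tumors. The part of mesothelial cells in the *Msln* values was not tested.

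*Il33* (ENSMUSG00000024810, chr19:29925114-29960718, plus strand) encodes interleukin-33, a nuclear cytokine released by damaged epithelial and stromal cells. It was at 31.4, 21.4 and 31.2 TPM in *Trp53fl/fl* tumors and at 20.1, 26.2 and 22.5 TPM in *VP* tumors, with overlap. On the log2 scale the fold change was -0.26 (standard error 0.18, 95% interval -0.70 to 0.17, limma adjusted p = 0.561). Leaving out 1 tumor gave -0.44, without *Trp53fl/fl* replicate 2, to -0.17. Its receptor ST2 is encoded by *Il1rl1* and carried by mast cells and some lymphocytes, among other cells. *Il1rl1* was at 124, 62.5 and 83.4 TPM in *Trp53fl/fl* tumors and at 31.9, 59.6 and 53.5 TPM in *VP* tumors. The groups did not overlap, though 62.5 and 59.6 TPM nearly met, and the log2 fold change of -0.88 did not pass (standard error 0.31, limma adjusted p = 0.341). The co-receptor *Il1rap* was at 0.20 (adjusted p = 0.751). Over the 8 receptors tested for the 9 gene products, 4 fold changes were positive and 4 negative, the second most negative being that of the Wnt co-receptor *Lrp6* at -0.25. No gene passed limma's adjusted threshold, and *Fpr1*, *Fpr2* and *Il1rl1* had an unadjusted p-value under 0.05, as did 12.5% of all genes.

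**Figure D3:**
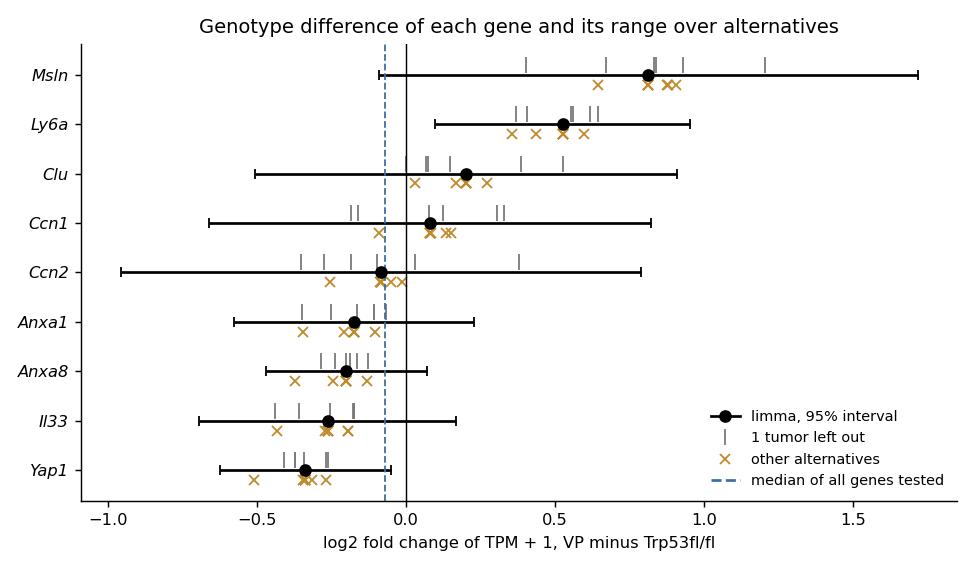
Log2 fold change of TPM + 1, *VP* minus *Trp53fl/fl* (horizontal axis), for each of the 9 genes, with limma's 95% interval (black), the values with 1 tumor left out (grey ticks), the values under other alternatives (crosses) and the median of all genes tested (dashed). Only the intervals of *Ly6a*, 0.097 to 0.95, and *Yap1*, -0.63 to -0.053, leave out 0, and neither gene passed adjustment over all genes.

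Other fetal-like and wound-associated epithelial genes were divided in direction too. Of the 20 listed, 19 were tested, 9 with positive and 10 with negative fold changes, a median of -0.03. By limma's adjusted p-value none passed. An unadjusted p-value under 0.05 was found for 3 with higher values in *VP* tumors, *Plaur*, *Plet1* and *Sprr1a*, and for 1 with lower values, *Gja1*. The shares of all genes were 4.51% and 8%. Every *VP* tumor was above every *Trp53fl/fl* tumor for 3 of the 19 (15.8%, against 6.03% of all genes) and below for 2 (10.5%, against 13.3%). *Plet1*, a surface protein of progenitor cells in repairing colon, was at 128, 129 and 89.0 TPM in *Trp53fl/fl* tumors and at 280.5, 239 and 181 TPM in *VP* tumors (log2 fold change 1.01, limma adjusted p = 0.199). *Plaur*, the urokinase receptor that guides proteolysis at wound edges, was at 45.8, 34.0 and 44.4 TPM and at 70.5, 71.1 and 71.2 TPM (log2 fold change 0.77, adjusted p = 0.123). *Plaur* is also carried by neutrophils, whose markers are given above. The most negative fold changes were those of the gap junction protein *Gja1*, at -0.41 (adjusted p = 0.390), and *Basp1*, at -0.29 (adjusted p = 0.534). *Anxa10* was the one listed gene too low to test, at no more than 0.57 TPM.

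Other Yap and Tead targets, 19 of 20 tested, had 7 positive and 12 negative fold changes with a median of -0.02. None passed limma's adjusted threshold, and 1, *Rbms3*, had an unadjusted p-value under 0.05, against 12.5% of all genes. Their genotypes were separated upward for 1 gene (5.26%, against 6.03% of all genes) and downward for 2 (10.5%, against 13.3%). *Igfbp3*, which binds insulin-like growth factors, was at 49.0, 44.3 and 44.1 TPM in *Trp53fl/fl* tumors and at 105, 53.8 and 52.1 TPM in *VP* tumors (log2 fold change 0.53, limma adjusted p = 0.444). *Ankrd1*, a muscle-associated ankyrin protein often used to read Yap activity, was between 0.67 and 2.98 TPM (log2 fold change 0.41, adjusted p = 0.619). At the other end, the RNA-binding protein *Rbms3* was at 8.90, 10.4 and 6.66 TPM and at 5.93, 3.28 and 5.28 TPM (log2 fold change -0.74, adjusted p = 0.325), and the stromal transcription factor *Foxf2* was at -0.27 (adjusted p = 0.448). Within the CCN family, *Ccn5* at 0.55 and *Ccn3* at 0.20 were the most positive and *Ccn2* at -0.08 and *Ccn4* at -0.02 the most negative of the 5 tested. None of them passed limma's adjusted threshold or had an unadjusted p-value under 0.05.

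In the pathway upstream of these targets, all 22 genes of the Hippo kinase cascade and its upstream regulators were tested, and 19 (86.4%) had negative fold changes, against 60.8% of all genes. The median was -0.21, against -0.07 over all genes. None passed limma's adjusted threshold, and 2, *Map4k4* and *Amot*, had an unadjusted p-value under 0.05, against 12.5% of all genes. Every *VP* tumor was below every *Trp53fl/fl* tumor for 6 of the 22 (27.3%, against 13.3% of all genes) and above for none, against 6.03% of all genes. *Map4k4*, a kinase that activates Lats, was at 61.9, 58.6 and 66.0 TPM in *Trp53fl/fl* tumors and at 41.1, 42.4 and 53.8 TPM in *VP* tumors (log2 fold change -0.44, limma adjusted p = 0.314). *Amot*, a scaffold that holds Yap at junctions, was at 22.5, 22.8 and 24.3 TPM and at 18.1, 15.0 and 18.1 TPM (log2 fold change -0.43, adjusted p = 0.302). The most positive values were small, *Wwc1* and *Taok3* both at 0.11. *Lats2*, *Amotl2* and *Ptpn14* are counted both here and among the targets.

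The list of Yap partners in the nucleus held *Wwtr1*, the Tead factors and the Vgll cofactors of Tead. These do not all act on Yap targets in the same direction, so their median does not read Yap activity. Of the 8 genes 7 were tested, 6 (85.7%) with negative fold changes, against 60.8% of all genes. The median was -0.37, against -0.07. *Tead2*, a Tead factor best known from embryonic tissues, was at 81.1, 55.2 and 90.2 TPM in *Trp53fl/fl* tumors and at 38.8, 39.3 and 61.4 TPM in *VP* tumors, with overlap (log2 fold change -0.69, limma adjusted p = 0.341). *Vgll3*, a Tead cofactor, was at -0.50 (adjusted p = 0.482). *Tead4* was the one gene above 0, at 4.97, 3.83 and 3.31 TPM against 5.29, 5.14 and 5.33 TPM (log2 fold change 0.33, adjusted p = 0.466). None of the 7 passed limma's adjusted threshold, and 3, *Tead2*, *Vgll4* and *Tead1*, had lower values in *VP* tumors with an unadjusted p-value under 0.05, as did 8% of all genes.

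A list of crypt base stem cell genes, in which the Wnt regulators *Axin2*, *Rnf43*, *Znrf3* and *Notum* are also counted, was read for comparison. Whether its values reflect a fetal-like state was not tested. Of the 9 tested, 6 (66.7%) had negative fold changes, against 60.8% of all genes. The median was -0.29, against -0.07 over all genes. None passed limma's adjusted threshold. In *VP* tumors 4, *Znrf3*, *Axin2*, *Lgr5* and *Notum*, had lower values with an unadjusted p-value under 0.05, as did 8% of all genes. Every *VP* tumor was below every *Trp53fl/fl* tumor for these genes and *Rnf43*, 5 of the 9 (55.6%, against 13.3% of all genes). For *Ascl2*, *Smoc2*, *Sox9* and *Lrig1* the genotypes overlapped. *Lgr5*, the receptor that marks cycling stem cells, was at 36.4, 32.6 and 39.9 TPM in *Trp53fl/fl* tumors and at 29.3, 25.3 and 15.1 TPM in *VP* tumors (log2 fold change -0.67, limma adjusted p = 0.344). *Znrf3*, a ubiquitin ligase that removes Wnt receptors, was at -0.65 (adjusted p = 0.289). *Lrig1*, a negative regulator of ErbB receptors, was at 0.34, and *Smoc2*, a matrix protein, at 0.23. *Olfm4*, the tenth listed gene, was too low to test, at 0.12 to 0.21 TPM in *Trp53fl/fl* tumors and 0.57 to 1.54 TPM in *VP* tumors. The medians of the Hippo genes, the nuclear partners and the stem cell genes were negative under all 14 alternatives, at -0.38 to -0.14, -0.54 to -0.29 and -0.46 to -0.20 respectively. The median of all genes was also negative under all 14, at -0.24 to -0.0074. For each of these medians the lowest value came with epithelial centring.

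**Figure D4:**
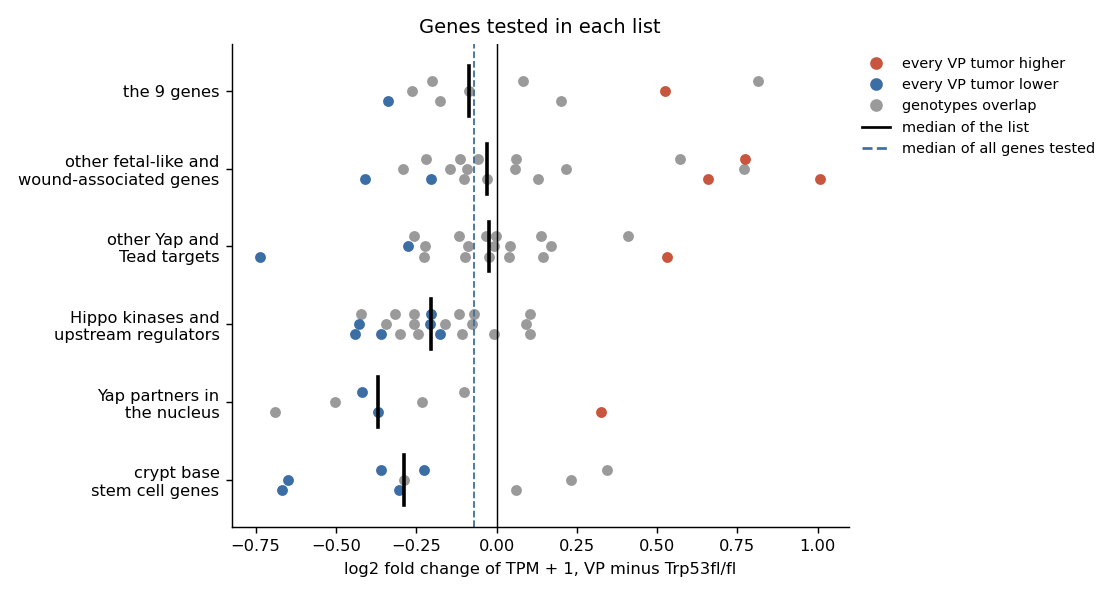
Log2 fold change of TPM + 1, *VP* minus *Trp53fl/fl* (horizontal axis), of each gene tested in 6 lists (rows), red or blue where every *VP* tumor is above or below every *Trp53fl/fl* tumor and grey where they overlap. Black bars mark list medians, from -0.02 for other Yap and Tead targets to -0.37 for Yap partners in the nucleus, and the dashed line marks the median of all genes, -0.07.

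To find the genes whose levels followed each of the 9 most closely across the 6 tumors, standardized log2 profiles were compared with those of the 11444 other genes with a mean of at least 5 TPM, by root mean square distance, which is 0 for profiles of identical shape. *Yap1* was nearest to *Metap2* (0.118) and *Coq2* (0.134). *Ccn1* was nearest to the colonocyte anion exchanger *Slc26a3* (0.106) and *Cgref1* (0.120), and *Ccn2* to *Toe1* (0.178) and *Pgap4* (0.187). *Ly6a* was nearest to *Ifi27l2b*, of an interferon-inducible family (0.105), and then to an assembled transcript without a name (0.180). For *Anxa1* the nearest were *Rpp30* (0.0955) and the quinone reductase *Nqo1* (0.158), and for *Anxa8* the matrix protein *Dpt* (0.123) and *Glrx3* (0.146). *Clu* had *Ephx2* (0.166) and *Thnsl2* (0.230), *Msln* had *Ift27* (0.164) and *Slfn4* (0.209), and *Il33* had *Gtf3a* (0.110) and *Cyb5rl* (0.113). Among the 9 genes themselves the closest pair was *Yap1* and *Anxa8* at 0.684, then *Ly6a* and *Msln* at 0.745, and *Ccn1* and *Ccn2* were at 0.844. With 6 tumors and so many candidates a short distance is easily reached, and the values are given as a description.

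Genes on the opposite strand overlap *Anxa1*, *Ccn2*, *Anxa8* and *Yap1* in the annotation. Their own values did not exceed 1.17 TPM in any tumor, against at least 27.3 TPM for the genes they overlap.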

How the data were processed

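RNA was extracted from 6 dissected colorectal tumors, 3 *Trp53fl/fl* and 3 *VP*, and poly(A)-selected libraries were sequenced as read pairs. TPM per gene and tumor, with 2 decimals, were deposited by the authors. The submitters' processing notes name HISAT2, StringTie and mm9, without versions. TPM keep no read number, so depth and counting error are unknown, and each TPM depends on all other genes of its tumor. Columns were assigned through the tumor codes in the labels, and no columns held identical values.

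From the deposited TPM, log2(TPM + 1) was fitted with limma 3.58.1 in R 4.3.3 (empirical Bayes with trend, no covariate, Benjamini-Hochberg adjustment), after a filter of at least 1 TPM in at least 3 tumors. The procedure was tested on simulated data. Positions are those of GENCODE M21 (GRCm38), which holds 52093 of 54167 gene IDs (96.2%). The deposited values carry no coordinates. The notes name another build.

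The 9 genes and all lists were chosen with earlier results of these data known. Besides the 9 genes and *Trp53*, the text names of each related list any gene that passed and the 2 largest fold changes in each direction. Of each marker list it gives summed TPM and genes that passed. For each of the 9 genes it gives the 2 nearest profiles. Others are named where some of the counts of 5 or fewer are spelled out, where the rest of a list is given beside such a count, or where a marker defines a cell type. These were chosen after their values were seen. Alternatives were a pseudocount of 0.1, no filter, quantile normalization, a filter on the mean (5 TPM or more), rescaling by median of ratios, epithelial centring (12 markers), no trend, a replicate block, and each tumor left out.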

Additional observations from a re-analysis of the deposited data

How the results depend on the processing

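None of the 9 genes passed an adjusted p-value of 0.05 under any of the 14 alternatives, and 120 of their 126 alternative log2 fold changes kept their direction. The other 6 were those of *Ccn1* at -0.0897 with epithelial centring, -0.18 without *Trp53fl/fl* replicate 2 and -0.16 without *VP* replicate 2, of *Ccn2* at 0.03 without *Trp53fl/fl* replicate 1 and 0.38 without *VP* replicate 3, and of *Clu* at -0.0015 without *VP* replicate 2. With 1 tumor left out *Ccn1* ranged from -0.18 to 0.33, *Ccn2* from -0.35 to 0.38 and *Clu* from -0.0015 to 0.53. The cause was not tested.

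The number of genes with an adjusted p-value under 0.05 fell from 25 to 7 of 27871 genes without the filter, where more genes are adjusted for, and to 10 with the replicate number as a replicate block. Same-numbered tumors did not deviate together (correlations 0.0185, -0.052 and 0.0175). The labels do not say whether they were paired, and with 3 tumors per genotype these correlations cannot exclude it. With 1 tumor left out the count lay between 3 and 23. It was 3, 14 and 9 without *Trp53fl/fl* replicates 1, 2 and 3, and 7, 5 and 23 without *VP* replicates 1, 2 and 3. The split of 12 higher and 13 lower became 13 and 9 with median-of-ratios rescaling, 12 and 20 with epithelial centring, 7 and 3 with the block and 4 and 3 without the filter. *Trp53* kept its fold change, -2.04 to -1.74, but its adjusted p-value rose above 0.05 in 6 of 14 alternatives (0.0148 to 0.108 in all), namely no filter, the block (0.0883), and leaving out *Trp53fl/fl* replicate 1 or 3 or *VP* replicate 1 or 2.

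Epithelial centring moved the median of all genes from -0.07 to -0.24. List medians near 0 changed sign in several alternatives. That of the other fetal-like genes reached 0.04 with median-of-ratios rescaling and 0.06 without *Trp53fl/fl* replicate 2, and was above 0 without any 1 *VP* tumor. That of the other Yap and Tead targets was 0.04 and 0.05 with median-of-ratios rescaling and quantile normalization, and above 0 without replicate 3 of either genotype. The CCN median was below 0 in 4 alternatives, down to -0.15, the receptor median in 5, down to -0.14, and the annexin median was 0.015 without *VP* replicate 1. The Hippo, nuclear partner, stem cell and Ly6 medians kept their sign in all 14, as did the negative median of all genes.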
